A study of Mus musculus with 2 samples.

Results

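The genes described here encode the extracellular cues that steer growing axons and migrating cells, and the receptors that read them. They are the probes whose RefSeq accession maps to a gene named Epha, Ephb, Efna, Efnb, Slit, Robo, Ntn or Nrp plus a number, to Sema plus a number, to a plexin (Plxna, Plxnb, Plxnc, Plxnd), to a symbol that begins with Unc5, or to Dcc. 120 probes met this, for 71 of the 23784 named genes on the array. A further symbol of the reference that fits, Sema4b, had no probe named by its accession. 3 of the 71 are members by spelling only: Unc50, a protein of the nuclear membrane and Golgi, Unc5cl, which resembles the Unc5 receptors in part, and the antisense transcript Plxna4os1. They were kept in the counts over all members and left out of the families. The other 68 are 34 ligands and 34 receptors or co-receptors.

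The cells were a glioblastoma stem cell line of the mouse, which grows as neurospheres in a neural stem cell medium without serum that contains B27, N2, EGF and bFGF. The line was derived from glioblastomas induced de novo in mice by the Sleeping Beauty (SB) transposon. The control group carried a non-target shRNA and the other group an shRNA against Gli2, a transcription factor at the end of the Hedgehog pathway; its array is called the knockdown array. Both shRNAs were delivered by lentivirus, and the knockdown cells were kept as a stable culture. Each group is 1 culture of the same line on 1 single-colour array, so there are no replicates, no test could be made, and no p-value is given.

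Ephrins sit on the surface of a cell and signal to Eph receptor tyrosine kinases on its neighbour. Semaphorins are secreted or membrane-bound ligands of plexins, and the secreted class acts through plexins joined to a neuropilin. Netrins attract axons through Dcc and repel them through Unc5 receptors, and Slits repel axons through Robo receptors. In the brain these systems guide axons and migrating precursors, and many of the same genes are expressed in glioma cells.

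Values are the deposited processed signals, and a difference is the log2 signal in the knockdown array minus that in the control array, after each array was set to its own 75th percentile. The error after ± is the scanner software's error of the spots, which does not cover the spread between cultures. A gene counts as measured where its brightest probe carried the software's mark for a signal well above background. A call is a difference of 2-fold or more. A difference beyond its error alone is not a call. Gli2 itself was lower in the knockdown array (98.1 and 57.9, -1.04 ± 0.22), and it missed 2-fold after normexp background correction (-0.64), median scaling (-0.90) and cyclic loess (-0.97). 59.5% of all probes were well above background on the control array and 57.1% on the knockdown array. Of 12 neural and glioma stem cell markers, 10 were measured on both arrays, among them Sox2 (5594 and 6516), Nes (11613 and 19441) and Olig2 (2359 and 2444). After scaling 8 of the 10 lay below 0, with a median of -0.11, and Nr2e1, on the control array only, was at least 2.14-fold lower. A further 1 was on the knockdown array only, with a bound short of 2-fold. Of 12 neuronal markers 11 were measured on both, with 5 above 0 and 6 below and a median of -0.03. Of 8 astrocyte markers measured on both, 7 lay below 0 and Apoe was 2.01-fold higher. Of 8 endothelial markers 3 were measured on both, 1 above 0 and 1.5-fold or more higher (0.74) and 2 below 0. Cdh5, Cldn5, Tek, Flt1 and Vwf were not well above background on either array. Of 11 microglial markers 4 were measured on both, all below 0, and 3 on the control array only, with bounds short of 2-fold. Cx3cr1, Ptprc, C1qa and Trem2 were on neither array. Of 8 pericyte and fibroblast markers 2 were measured on both, and these lay below 0. Of 10 oligodendrocyte lineage markers 6 were measured on both, with 2 above 0 and 4 below and a median of -0.37. Median scaling, which raises every difference by 0.14, put markers that lay less than this below 0 above it, Sox2, Pax6, Msi1 and Fabp7 among them. The part of these cell type markers in the differences below was not tested.

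Most of the guidance genes were measured in this line, and those past 2-fold were all higher in the knockdown array. Of the 71 genes, 56 were measured on both arrays (78.9%, against 61.2% of all named genes), 2 on the knockdown array only and 13 on neither. 6 of the 56 were 2-fold or more higher and 0 lower, where 1.84% of all genes measured on both arrays were called higher and 1.79% lower. The 6 are the plexins Plxnd1 and Plxnc1, the netrin receptor Unc5a, the netrin Ntn5, the ephrin receptor Epha5 and the ephrin Efna1. Epha2 and Epha8, measured on the knockdown array only, were higher by bounds past 2-fold. Since these passed the filter only through the array in which they were high, they are kept apart from the 6.

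Below the 2-fold rule the picture was similar. 13 of the 56 were 1.5-fold or more higher (23.2%), against a background of 6.00%, and 1, Robo2, was 1.5-fold or more lower, against 6.54%. 36 of the 56 lay above 0 (64.3%), compared with 50.3% of all genes. The median over members was 0.18, compared with 0.00 over all genes measured on both arrays. Median scaling raised all differences by 0.14 and the members' median to 0.32, so that the gap of 0.18 to all genes was unchanged. It put 45 of the 56 above 0, but it also raised the median of all genes to 0.14. The share of all genes above 0 was not computed for that scaling, so the 45 cannot be set against the 50.3%. With that scaling 2.64% of all genes were called higher and 1.21% lower.

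**Figure D1:**
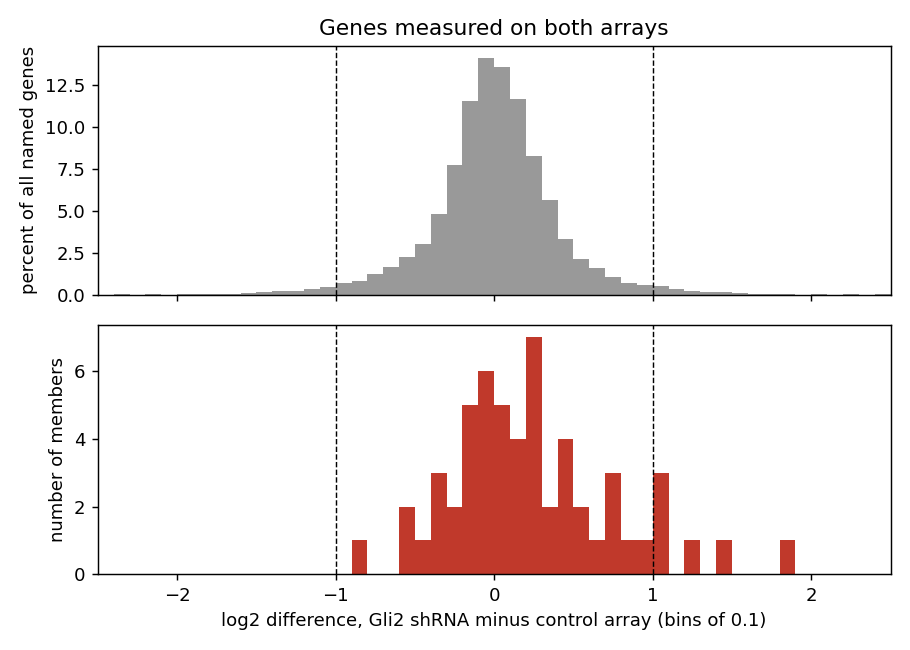
The top panel shows the log2 difference (Gli2 shRNA minus control) of the 14563 named genes measured on both arrays as a percentage of genes per bin, and the bottom panel the number of guidance genes per bin; dashed lines mark 2-fold. The 6 genes past 2-fold all lie to the right, between 1.04 and 1.82, and the member farthest to the left is Robo2 at -0.89.

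**Figure D2:**
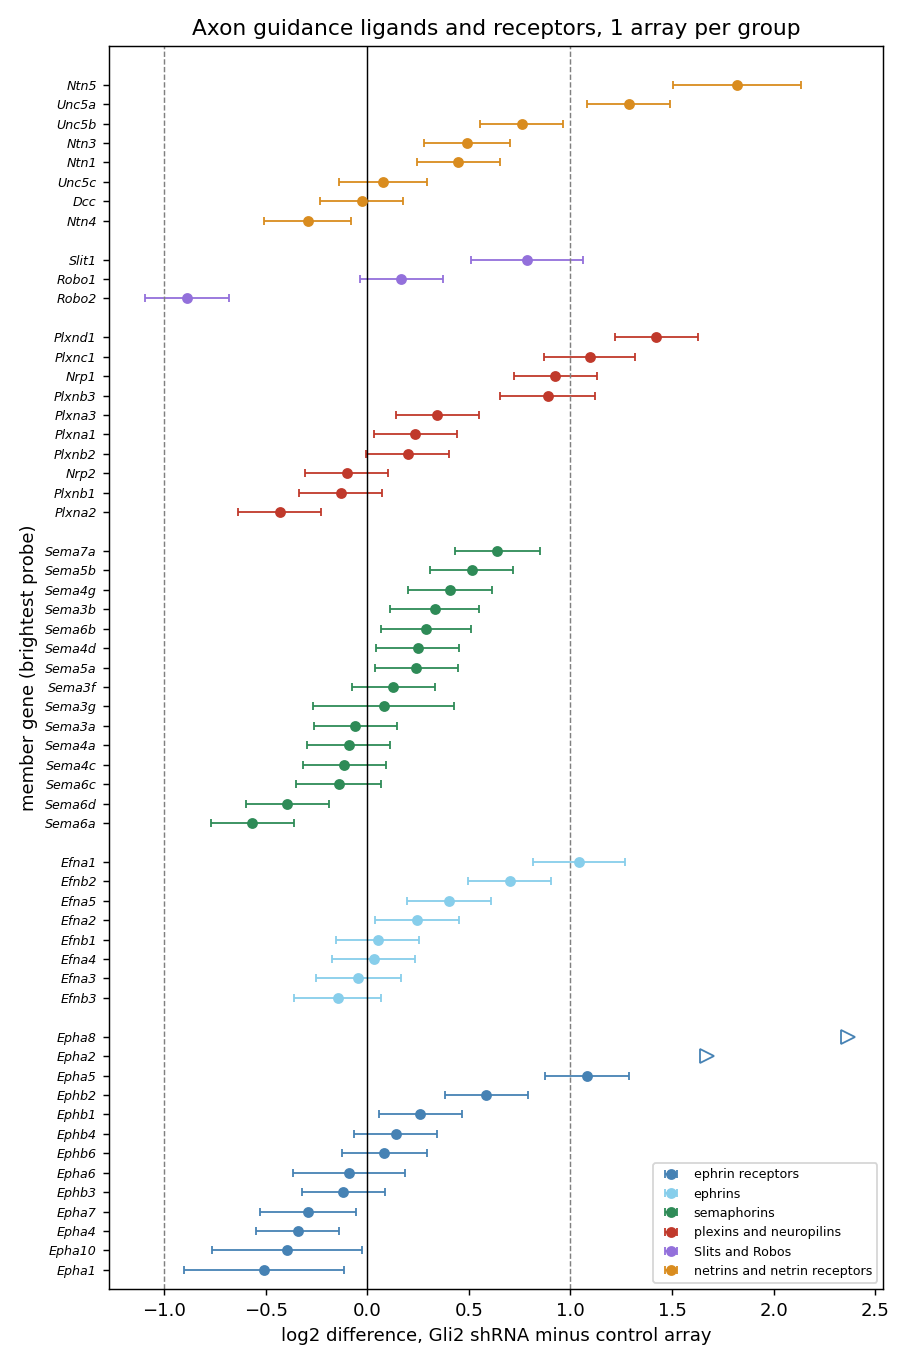
Each point is the log2 difference of a guidance gene on its brightest probe, grouped by family, with the scanner software's error as the bar, and open triangles are lower bounds for the 2 genes measured on the knockdown array only. The members past the right dashed line (2-fold) come from the netrin system, the plexins, the ephrins and the ephrin receptors, and no semaphorin, Slit or Robo is among them.

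Among the receptors of semaphorins, Plxnd1 was higher on both of its probes and Nrp1 on all 3. Plxnd1, which binds Sema3e and guides vessels and axons, gave 3451 in the control and 11207 in the knockdown array on its brightest probe (RefSeq NM_026376, chromosome 6), a difference of 1.42 ± 0.20 or 2.68-fold. Its other probe gave 233 and 774, a difference of 1.45 ± 0.20. Both probes were thus nearly alike, far above the detection floor, the dimmest signal that the software marked as well above background (12.8 in the control and 15.2 in the knockdown), and with normexp the brightest gave 1.46.

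Nrp1 is a co-receptor for secreted semaphorins and for the vascular growth factor VEGF-A. Its 3 probes gave 995 and 2289, 88.1 and 196, and 27.6 and 65.6 in the control and the knockdown array. The differences were 0.92 ± 0.20, 0.88 ± 0.21 and 0.97 ± 0.27, so that every probe fell short of 2-fold by little and in the same direction. With normexp the brightest was at 0.88, and the dimmer probes fell to 0.46 and 0.33. Nrp2, the other neuropilin, did not share this. It gave 27774 and 31409 on its brightest probe (-0.10 ± 0.20), and its other probes, which carry the accessions of other transcripts, gave -0.65 ± 0.20 (6293 and 4877) and -0.28 ± 0.32 (27.8 and 27.8).

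Plxnc1, the receptor of the membrane-anchored Sema7a, was dim and 2.13-fold higher (56.9 and 147, 1.09 ± 0.22). With normexp, which adds an offset and pulls differences of dim probes toward 0, it was at 0.58. The other Plxnc1 probe was not well above background on either array (7.70 and 9.52). Plxnb3, a receptor of Sema5a, has no settled direction. Its probes gave 41.1 and 92.1 (0.89 ± 0.23) and 66.1 and 44.5 (-0.85 ± 0.25), opposite ways and each beyond its error.

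The remaining plexins were within 2-fold. Plxna2, a receptor of class 6 semaphorins, lay below 0 on both probes (-0.43 ± 0.20 and -0.45 ± 0.20; 2462 and 2214 on the brightest). The probes of Plxna3 gave 0.34 ± 0.20 and, at a lower signal, 0.02 ± 0.21. Plxna1 differed by 0.24 ± 0.20, Plxnb2, a receptor of Sema4c, by 0.20 ± 0.20, and Plxnb1, the receptor of Sema4d, by -0.13 ± 0.20, or 0.01 with median scaling. Plxna4 was not well above background on either array. Over the 10 plexins and neuropilins measured on both arrays the median was 0.29, with 7 above 0, against 50.3% of all genes. Of the 10, 2 were past 2-fold and higher and 0 lower, against 1.84% and 1.79% of all genes.

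**Figure D3:**
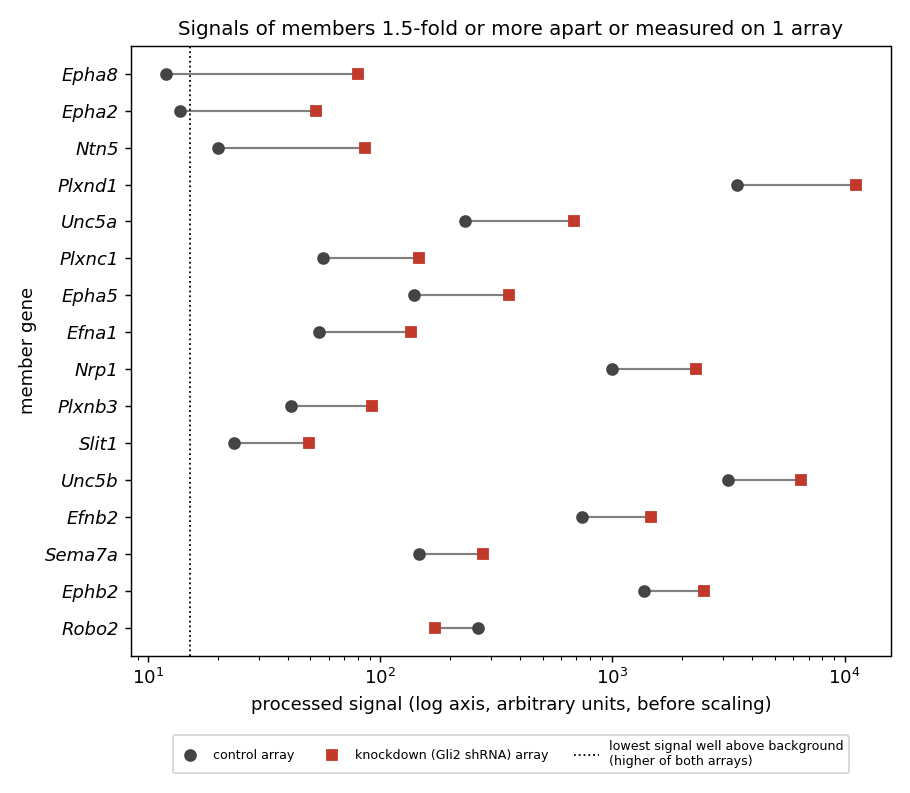
Processed signal on the control array (circles) and the knockdown array (squares), on a log axis and before scaling, for the 14 guidance genes 1.5-fold or more apart and for the 2 measured on the knockdown array only. Robo2 is the gene whose Gli2 shRNA signal lies to the left of its control signal, and Epha2, Epha8, Ntn5 and Slit1 start near the dotted line of the detection floor.

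Of the 19 semaphorins, 15 were measured on both arrays and 0 were past 2-fold, a count near the background of 1.84% of all genes called higher and 1.79% lower. 9 lay above 0 and 6 below, and the median was 0.13. Sema7a, the ligand of Plxnc1, was the member of the family past 1.5-fold. It gave 147 and 278, a difference of 0.64 ± 0.21. Its receptor also lay above 0, as did 64.3% of the members measured on both arrays. Sema3e, the ligand of Plxnd1, was not well above background on either array, and nor were Sema3c and Sema3d. Of the secreted semaphorins that were measured, Sema3a, a repellent acting through Nrp1, differed by -0.06 ± 0.20 (1156 and 1345) and by 0.19 on its other probe. Sema3f, a repellent acting through Nrp2, differed by 0.13 ± 0.20, and by 0.63 ± 0.22 on a dimmer probe (55.9 and 105). Sema3b (0.33 ± 0.22) and Sema3g (0.08 ± 0.35) were dim, and the former lay beyond its error.

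Members of the transmembrane class 6 lay on both sides of 0. Sema6a, a ligand of Plxna2 and Plxna4, was lower on both probes, with 676 and 554 (-0.57 ± 0.20) and 400.3 and 269.9 (-0.85 ± 0.21). Sema6d, a ligand of Plxna1, was at -0.39 ± 0.20 on its brightest probe, and its others were at -0.12 and 0.19. Sema6c differed by -0.14 ± 0.21 and, on its other probe, by 0.48 ± 0.21, and Sema6b by 0.29 ± 0.22. Sema6a was thus the member of this class with several probes that all lay beyond their error on the same side of 0.

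In classes 4 and 5, Sema4c gave a bright and nearly equal signal (53474 and 59954, -0.11 ± 0.20), and its other probes gave 0.03 and 0.05. Sema4d differed by 0.25 ± 0.20, Sema4g by 0.41 ± 0.21 and Sema4a by -0.09 ± 0.20. Sema5b was at 0.51 ± 0.20 on its brightest probe, with the others at -0.18 and -0.07, and Sema5a by 0.24 ± 0.20 and -0.41 ± 0.30. Sema4f was not well above background on either array.

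In the netrin system, on the brightest probe of each gene, Unc5a, Unc5b, Ntn1, Ntn3 and Ntn5 lay above 0 by more than their error. Ntn4 lay below 0 by more than its error, though not with median scaling, and Unc5c and Dcc were within their error of 0. The share of all genes that lay beyond their error was not counted. Unc5a, a repulsive netrin receptor that can also trigger cell death in the absence of its ligand, was 2.44-fold higher. Its probe (RefSeq NM_153131, chromosome 13) gave 232 in the control and 685 in the knockdown array, a difference of 1.29 ± 0.20, and 1.08 with normexp. Unc5a and Plxnd1 were the members past 2-fold with normexp, where 0.460% of all genes were called higher and 0.687% lower. Unc5b, of the same receptor family, was 1.69-fold higher (3160 and 6489, 0.76 ± 0.20), and its other probe gave 825 and 1583 (0.66 ± 0.20). Unc5c was near 0 (0.08 ± 0.21, and 0.37 ± 0.26 on a dimmer probe), and Unc5d was not well above background on either array.

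Dcc, the attractive receptor, gave 9841 and 11699 on its brightest probe, a difference of -0.03 ± 0.20. A dimmer Dcc probe agreed within its error (38.6 and 43.7, -0.10 ± 0.26), and a pair of further Dcc probes were not well above background. Ntn1, the best known netrin and a ligand of both kinds of receptor, gave 694 and 1147 (0.45 ± 0.20). Ntn3 differed by 0.49 ± 0.21 (108 and 185), and by 0.15 ± 0.25 on its other probe. Ntn4, a netrin of basement membranes, lay below 0 (103 and 102, -0.29 ± 0.21), and with median scaling it was at -0.16, within its error.

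Ntn5, a less studied netrin, had the highest difference of the 56, 1.82 ± 0.32 or 3.53-fold, but at a low signal. It gave 20.1 in the control and 85.9 in the knockdown array, close to the detection floor of 12.8. After normexp it was at 0.48, and its other probe was not well above background on either array (3.18 and 8.30). Over the 8 netrins and receptors measured on both arrays, 6 lay above 0, against 50.3% of all genes. Of the 8, 2 were past 2-fold and higher and 0 lower, against 1.84% and 1.79% of all genes. The median was 0.47, between 0.37 and 0.60 under the alternatives.

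To show the sequence upstream of the genes that stayed past 2-fold with normexp, Plxnd1 and Unc5a, and of Plxnc1 and Ntn5, which did not, the 250 bases before the start of transcription are printed from the RefSeq promoter table (build GRCm38.p6), 5′ to 3′ in the direction of the gene. Capitals mark GGGCGG or its reverse complement, the GC box bound by Sp family factors.
Plxnd1 (chr6:115995006-115995255, minus strand): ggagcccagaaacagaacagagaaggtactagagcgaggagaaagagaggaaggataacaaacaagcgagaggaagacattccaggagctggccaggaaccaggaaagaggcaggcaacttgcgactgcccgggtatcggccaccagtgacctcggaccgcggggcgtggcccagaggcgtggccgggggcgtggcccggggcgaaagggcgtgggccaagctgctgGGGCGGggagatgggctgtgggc
Unc5a (chr13:54949161-54949410, plus strand): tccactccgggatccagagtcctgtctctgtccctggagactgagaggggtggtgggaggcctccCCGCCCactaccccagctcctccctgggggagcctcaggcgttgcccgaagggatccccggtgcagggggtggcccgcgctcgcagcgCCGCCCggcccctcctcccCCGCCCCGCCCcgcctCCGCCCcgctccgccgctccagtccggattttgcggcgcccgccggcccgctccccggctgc
Plxnc1 (chr10:94944846-94945095, minus strand): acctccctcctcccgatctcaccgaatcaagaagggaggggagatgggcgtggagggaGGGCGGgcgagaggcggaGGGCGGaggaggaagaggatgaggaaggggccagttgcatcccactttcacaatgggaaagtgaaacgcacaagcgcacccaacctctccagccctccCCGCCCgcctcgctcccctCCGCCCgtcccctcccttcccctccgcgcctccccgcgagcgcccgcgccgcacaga
Ntn5 (chr7:45683772-45684021, plus strand): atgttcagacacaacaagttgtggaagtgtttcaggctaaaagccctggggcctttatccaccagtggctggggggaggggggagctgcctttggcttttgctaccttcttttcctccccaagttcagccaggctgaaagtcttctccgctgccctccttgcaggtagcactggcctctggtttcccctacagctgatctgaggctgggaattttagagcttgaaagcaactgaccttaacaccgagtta

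The windows were searched on both strands for GACCACCCA, a core of the binding motif of Gli factors, and for GGGCGG. Hits of the same motif may overlap each other and were marked together, and neither motif contains the other. 60 of the 71 genes had an entry, with 75 windows. None of the 75 held GACCACCCA, which occurred in 0.225% of all 32851 windows of the table and in 0.164% of the 14661 windows of genes measured on both arrays. GGGCGG was in 71.4% of the 63 windows of members measured on both arrays and in 53.9% of windows of all genes measured on both. The Plxnd1 window holds 1 GC box, that of Unc5a 5, that of Plxnc1 4 and that of Ntn5 0. The windows of Epha5 and Efna1, not shown, hold GC boxes too. The median G+C content was 64.4% over the windows of measured members and 59.2% over those of all measured genes. A match is a run of letters and says nothing of binding.

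Of the 11 Eph receptors measured on both arrays, 5 lay above 0 and 6 below; of the A class 1 of 6 lay above 0 and of the B class 4 of 5. Epha5, a receptor of A-type ephrins in the forebrain, was the receptor past 2-fold among the 11 and was higher on all 3 probes. It gave 139 and 357 (1.08 ± 0.21, 2.12-fold), 60.8 and 118 (0.68 ± 0.22) and 25.1 and 62.1 (1.03 ± 0.27). The direction was shared, while the size passed 2-fold on the brightest and on the dimmest probe and not on the middle probe. With the mean of the probes Epha5 fell short of 2-fold. With normexp all 3 probes did, at 0.80 on the brightest, 0.27 on the middle and 0.34 on the dimmest.

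Epha2, a receptor of Efna1 studied as a target in glioblastoma, and Epha8 were measured on the knockdown array only. Epha2 gave 13.7 and 53.0 and was at least 3.19-fold higher, and Epha8 gave 11.9 and 79.8 and was at least 5.16-fold higher. For such genes the control side was set to the detection floor or to the probe's own signal, whichever was higher. For Epha2 its own signal was the higher, so the bound is the difference itself (1.67 ± 0.37). Of the 476 genes measured on the knockdown array only, 31.1% were at least 2-fold higher, so that bounds past 2-fold are common among such genes. With normexp the differences were 0.37 for Epha2 and 0.60 for Epha8.

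The other A-class receptors measured on both arrays lay below 0 and within 2-fold. Epha4, a receptor of ephrins of both classes, gave 724 and 692 (-0.34 ± 0.20). Epha1 (-0.51 ± 0.39), Epha10 (-0.40 ± 0.37), Epha6 (-0.09 ± 0.27) and Epha7 (-0.29 ± 0.24) were dim, and a second Epha7 probe gave 0.13 ± 0.31. With median scaling Epha6 lay at 0.04. A further Epha7 probe, measured on the control array only, was at least 1.32-fold lower. The brightest Epha3 probe was not well above background on either array, and its other probe, measured on the knockdown array only (3.28 and 21.9), was at least 1.41-fold higher.

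The B-class receptors were all measured on both arrays and none was past 2-fold. Ephb2, a receptor of B-type ephrins that also takes part in synapse formation, gave 1371 and 2492 (0.59 ± 0.20), and its dimmer probe 124 and 163 (0.11 ± 0.21). Ephb3 gave 32033 and 35760 (-0.12 ± 0.20), and with median scaling it was at 0.02. Ephb1 (0.26 ± 0.20) and Ephb4 (0.14 ± 0.20, and 0.32 on its other probe), the receptor of Efnb2 in vessels, lay above 0. Ephb6, which lacks kinase activity, gave 0.08 ± 0.21 and, on its other probe, -0.44 ± 0.28. The median over the 11 Eph receptors measured on both arrays was -0.09, and it turned to 0.04 with median scaling, 0.01 with quantile normalization and 0.08 with cyclic loess, so the family has no direction.

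All 8 ephrins were measured on both arrays, with 6 above 0, against 50.3% of all genes, and a median of 0.15. Efna1, a ligand of Epha2, was dim and 2.06-fold higher (54.3 and 135, 1.04 ± 0.23), and it was at 0.50 with normexp. Its neighbours on chromosome 3, Efna3 and Efna4, were equal on both arrays. Efna3 gave 119 and 140 (-0.04 ± 0.21), and Efna4 gave 279 and 345 (0.03 ± 0.21). The difference was thus not shared over this cluster of A-type ephrin genes.

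Efnb2, a ligand of Ephb2 and Ephb4, was 1.63-fold higher (741 and 1459, 0.70 ± 0.20). Ephb2 and Ephb4 also lay above 0, as did 64.3% of the members measured on both arrays. Efna5, a ligand of Epha5, gave 416 and 666 (0.40 ± 0.20), and 0.23 ± 0.21 on its second probe. Efna2 differed by 0.24 ± 0.21, and Efnb1 (1276 and 1603, 0.05 ± 0.20) and Efnb3 (-0.15 ± 0.21) were near 0.

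In the Slit and Robo system 4 of 7 genes were not well above background on either array: Slit2, Slit3, Robo3 and Robo4. Robo2, a Slit receptor, was the member 1.5-fold or more lower. Its 3 probes measured on both arrays gave 264 and 173 (-0.89 ± 0.21), 133 and 112 (-0.53 ± 0.21) and 40.3 and 30.1 (-0.69 ± 0.29). All 3 lay below 0 by more than their error, and a further probe, measured on the control array only, was at least 1.74-fold lower. With normexp the 3 were at -0.61, -0.40 and -0.38. Robo1, which lies next to Robo2 on chromosome 16, did not share this on its brightest probe (619 and 842, 0.17 ± 0.20), and its dim probe gave -0.65 ± 0.35. Slit1, the ligand that was measured, gave 23.5 and 49.1 (0.79 ± 0.28), near background, and 0.18 with normexp.

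**Figure D4:**
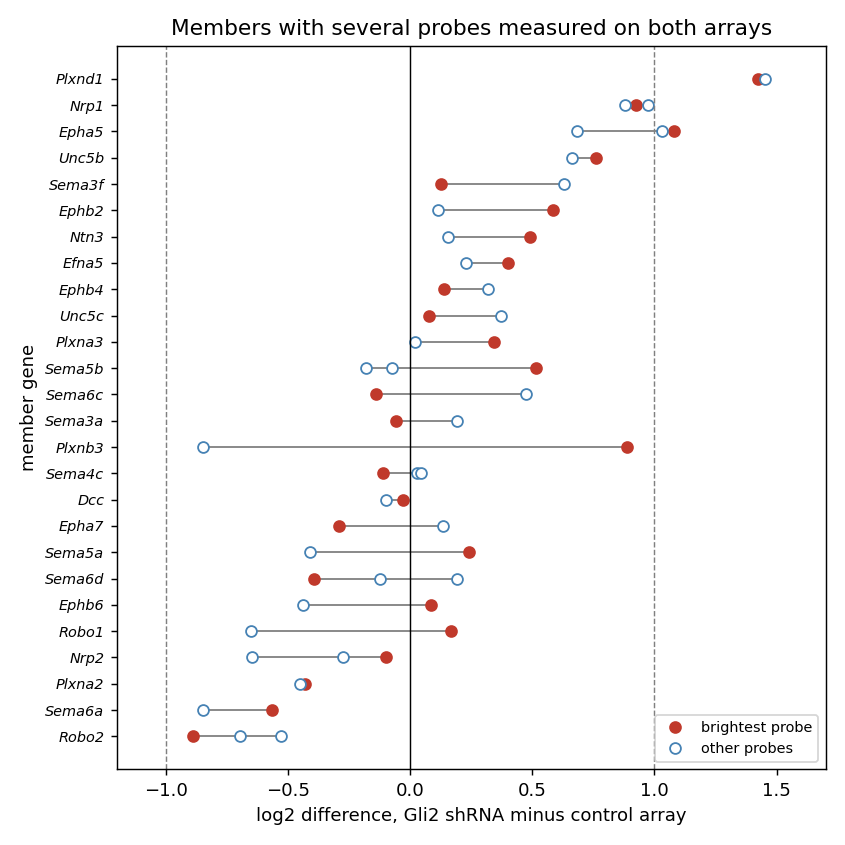
Log2 difference of every probe measured on both arrays for the 26 guidance genes that have several such probes, with the brightest probe filled and the others open. The probes of Plxnd1, Nrp1, Unc5b and Plxna2 lie within 0.10 of each other, whereas those of Plxnb3 lie 1.73 apart on opposite sides of 0.

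Probes of the same gene give the nearest thing to a repeat in these data, although they share the RNA and may read different transcripts. Of the 26 genes with several probes measured on both arrays, 16 had all probes on the same side of 0 and 10 did not. The median range between probes was 0.35, larger than the median software error of 0.20 over the measured members. Besides Plxnb3, the genes whose probes lay on both sides of 0 with 1 beyond 1.5-fold included Robo1, and the other 8 were Epha7, Ephb6, Sema3a, Sema4c, Sema5a, Sema5b, Sema6c and Sema6d. Of the 13 genes 1.5-fold or more higher, 6 had several such probes: Plxnd1, Nrp1, Epha5, Unc5b, Ephb2 and Plxnb3, and for all but Plxnb3 every probe lay above 0.

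**Figure D5:**
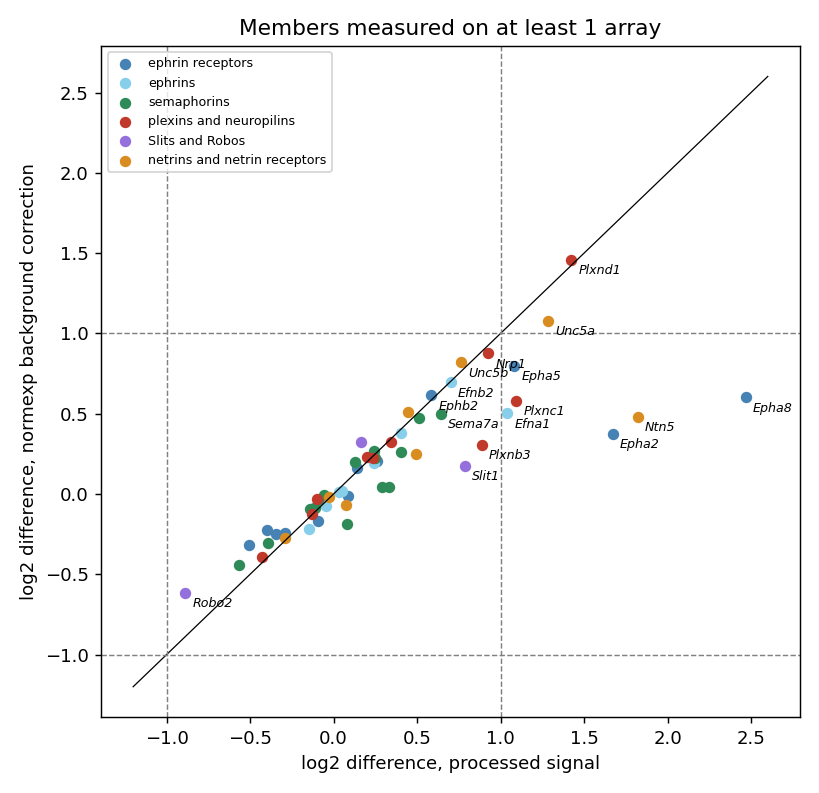
Log2 difference of each guidance gene measured on at least 1 array, from the processed signal (x axis) and after normexp background correction (y axis), coloured by family; the line marks equality and dashed lines 2-fold. Bright genes such as Plxnd1, Nrp1 and Unc5b lie on or near the line, whereas the dim genes Epha8, Ntn5 and Epha2 fall from 2.47, 1.82 and 1.67 to 0.60, 0.48 and 0.37.

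A list of 133 further genes of these pathways holds cytoplasmic relays to actin and microtubules, binding partners of the receptors, and other guidance and adhesion receptors. Of the 115 measured on both arrays, 7 were 2-fold or more higher (6.09%) and 1 lower, against the 1.84% and 1.79% of all genes given above. At 1.5-fold 16 of the 115 were higher (13.9%) and 6 lower, against 6.00% and 6.54% of all genes. The median of 0.05 was near that of all genes. In the relay of semaphorins and plexins, 16 of 22 lay above 0 (72.7%, against 50.3% of all genes), 5 were 1.5-fold or more higher (22.7%, against 6.00%) and 0 lower (against 6.54%). Crmp1 and Dpysl3, members of the collapsin response mediator proteins that carry the Sema3a signal to microtubules, were 2.25-fold (1486 and 4047, 1.17 ± 0.20) and 2.02-fold higher (3632 and 8911, 1.02 ± 0.20). Dpysl3 had further probes at 1.22 and 1.25. Farp2, an exchange factor on plexin A, differed by 0.91 ± 0.21, Cdk5r1, the activator of the kinase Cdk5, by 0.79 ± 0.20, and Mical2, an enzyme that oxidises actin, by 0.71 ± 0.20.

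In the ephrin relay Ngef, an exchange factor bound by EphA receptors, was 2.14-fold higher (84.0 and 218, 1.10 ± 0.21), with 11 of 21 above 0. Of the 21, 2 were 1.5-fold or more higher and 1 lower, at -0.60. Of the 17 netrin partners 8 lay above 0, 3 were 1.5-fold or more higher and 2 lower, the lowest at -0.93. Trim67, a ubiquitin ligase that binds Dcc, was 2.61-fold higher on its brighter probe (37.6 and 119) and at -0.03 on its other. Flrt2, a ligand of Unc5 receptors, differed by 0.96 ± 0.21, and Ablim1, an actin-binding protein measured on the control array only, was at least 2.37-fold lower. Such bounds reached 2-fold for 18.2% of the 931 genes that were likewise measured in the control alone. In the Slit and Robo relay 13 of 20 lay above 0 and none was past 2-fold. Of the 20, 1 was 1.5-fold or more higher and 1 lower, at -0.62. The higher gene was Flrt3, which binds Robo1 and Unc5b, at 0.70 ± 0.20.

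Of 17 other guidance receptors and adhesion partners, 9 lay above 0. Celsr3, an adhesion receptor of axon tract formation, was 2.22-fold higher on its brighter probe (588 and 1581) and at -0.26 on its other. Ptprz1, a receptor phosphatase of glial precursors and glioma, was 2.12-fold lower (9709 and 5561, -1.08 ± 0.20) and at -1.57 on its other probe. With normexp Crmp1, Dpysl3, Celsr3 and Ptprz1 were past 2-fold, and Ngef (0.66) and Trim67 (0.60) fell short of it.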

How the data were processed

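Cy3-labelled RNA of 2 cultures, 1 per group, was hybridised to Agilent arrays in 1 colour, per the labels' protocols. Per the file headers, Agilent Feature Extraction 12.1.0.3 made the values, on design 074809 with a grid of build mm9. For every spot the deposited files give a processed intensity from which background had been subtracted, a software error, and median and background intensities. The authors' deposited value table is on a log2 scale and differed from the log2 processed intensity by a constant per array (8.36 in the control, 8.64 in the knockdown).

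Control spots and spots marked as outliers were left out (126 and 120), spots of a probe were averaged, and each array's 75th percentile was subtracted on the log2 scale, with Python 3.11.15. Probes were named through RefSeq accessions of GRCm38.p6, which matched 34560 of 56595 probes. A gene was represented by its brightest probe. Alternatives used limma 3.58.1: normexp (offset 50, on median signals, since the files used here give no mean signal), quantile normalization and cyclic loess; the others were median scaling, the mean of probes, no filter, a filter at 4 times the lowest signal well above background, the authors' table and 1.5-fold. The fold and bound calculation was tested on simulated data.

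Named are Gli2, members past 2-fold, the 3 highest and 3 lowest and the brightest of each family, members whose probes disagree, and further pathway genes past 2-fold, other than those of 1 group, which is counted in the totals over that list and not reported here by itself (2 of the pathway genes 2-fold or more higher belong to it). Other members and some pathway genes 1.5-fold or more apart were named to account for the lists. Members, lists and rules were chosen with earlier results of these data known. No test was possible with 1 array in each group, and the number of arrays limits the precision.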

Additional observations from a re-analysis of the deposited data

How the results depend on the processing

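No paired analysis was possible because each group has 1 array. The 6 higher members were also those past 2-fold with quantile normalization, cyclic loess and the authors' value table, and median scaling added Nrp1 and Plxnb3. Normexp left 2 of the 6 (Plxnd1 and Unc5a) and 0 of the 2 bounds. With it the count of pathway genes past 2-fold was 5, compared with 8 before. The whole-array count was 167, compared with 528, and the overlap of these sets was not counted. The mean of probes left out Epha5, and the pathway and whole-array counts were 6 and 470. Celsr3 (0.45) and Trim67 (0.67) then fell short of 2-fold. Without a filter on dim probes 3 members were lower past 2-fold (Sema3d, Slit3 and Unc5d, on neither array well above background), and the pathway and whole-array counts were 13 and 2844. With the stricter filter Ntn5 dropped out, the whole-array count was 290, and the median of the ephrin receptors was 0.14. At 1.5-fold the counts were 13 members higher, 1 lower, 22 pathway genes and 1827 genes in all. The median of the Slits and Robos, which rests on 3 genes, turned from 0.17 to -0.24 with the mean of probes. That value is the mean of the 2 Robo1 probes. It was -0.47 over 7 genes without a filter and -0.36 over 2 genes with the stricter filter. Other than by the probes averaged and the genes each filter admits, the cause was not tested. Ntn5, Slit1, Epha2 and Epha8 had control signals near the detection floor, and their differences were smaller with normexp. Those of Efna1, Epha5, Plxnc1, Plxnb3, Unc5a and Robo2 were smaller in size with normexp too. The part of signal over background in these folds was not tested.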
